A study of Rattus norvegicus with 12 samples.

Results

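The pituitary cells other than gonadotropes that depend on the transcription factor POU1F1 were followed through 10 genes: Gh1, Ghrhr, Prl, Drd2, Pou1f1, Tshb, Trhr, Dio2, Ghsr and Sstr5. Members were all probe sets whose only gene symbol in the platform annotation was one of these names, which gave 14 of the 31042 probe sets that are no array control. The 14217 genes of the array include all 10. The levels were asked to show how much RNA of somatotropes, lactotropes and thyrotropes the gonadotrope-enriched cultures held, by array and by preparation, and whether any member differed between GnRH and vehicle.

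The cells came from the anterior pituitaries of adult female Sprague-Dawley rats that had been ovariectomized 2 weeks earlier, 13 to 15 glands pooled per experiment. Large cells were taken by sedimentation, a pool of about 6% of the recovered cells in which 40% to 60% stained for LH, against under 7% before fractionation; the identity of the remaining cells was not given. On day 3 of culture, in medium with 0.2 nM estradiol and 10% charcoal-treated serum that both groups shared, 6 samples received 10 nM GnRH and 6 received vehicle for 40 min. The 12 samples fall into 3 separately enriched preparations of 2 GnRH and 2 vehicle arrays: replicates 1 and 2 of each agent are enrichment set I, 3 and 4 set II, and 5 and 6 set III. RNA went through 2 rounds of T7 amplification, and each sample was hybridised to 1 Affymetrix Rat Expression Array 230 2.0.

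POU1F1, also called PIT-1, is the pituitary factor that somatotropes, lactotropes and thyrotropes need to form, and it binds and activates the growth hormone, prolactin and TSH beta genes. Growth hormone release is driven by GHRH and ghrelin and held back by somatostatin, prolactin release is held back by dopamine through the D2 receptor, and TSH release is driven by TRH and held back by thyroid hormone. GnRH is known for its receptor on gonadotropes, which make LH and FSH and do not belong to the POU1F1 lineage.

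The promoter stretches of prolactin and TSH beta are shown because POU1F1 acts there, and that of Dio2, the enzyme that turns thyroxine into active thyroid hormone, because it was the other member promoter that held the motif searched. The sequences are the 250 bases before the annotated start, in gene direction, from RefSeq's rat assembly GRCr8, and the capitals mark the POU1F1 core motif TATNCAT, searched on both strands. Prl is at chr17:38298218-38298467 on the minus strand, Tshb at chr2:192918055-192918304 on the minus strand, and Dio2 at chr6:115410595-115410844 on the minus strand.
Prl: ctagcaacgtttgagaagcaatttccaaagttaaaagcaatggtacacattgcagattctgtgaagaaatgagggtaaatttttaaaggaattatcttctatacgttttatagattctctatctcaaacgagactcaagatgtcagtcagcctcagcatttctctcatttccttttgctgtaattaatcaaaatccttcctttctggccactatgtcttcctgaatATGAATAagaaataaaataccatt
Tshb: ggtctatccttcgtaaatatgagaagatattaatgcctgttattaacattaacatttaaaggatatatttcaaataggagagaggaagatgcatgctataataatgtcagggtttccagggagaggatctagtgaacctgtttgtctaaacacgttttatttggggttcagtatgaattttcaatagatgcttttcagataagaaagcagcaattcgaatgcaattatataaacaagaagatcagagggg
Dio2: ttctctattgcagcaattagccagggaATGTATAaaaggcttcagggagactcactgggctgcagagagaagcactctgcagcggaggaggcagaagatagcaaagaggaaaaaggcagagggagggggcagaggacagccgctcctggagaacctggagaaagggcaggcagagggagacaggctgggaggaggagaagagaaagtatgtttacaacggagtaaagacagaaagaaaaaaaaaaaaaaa
The RefSeq table matched 7 of the 10 members, with 8 promoters, since Ghrhr has 2. Over 300 bases, which add 50 bases after the start, 2 of these 8 held the motif, both on the strand opposite to the gene: ATGAATA at -24 to -18 of Prl and ATGTATA at -223 to -217 of Dio2. The motif was found in 9.88% of all 33469 promoters of that length, so a match in a short motif like this describes letters and not a bound site.

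The arrays differed in a way that touches every level below. The spike-in signal, the geometric mean over 18 probe sets of the bacterial transcripts (bioB, bioC, bioD and cre) that are added to each hybridisation, lay between 2264 and 11705 on 5 arrays (all 4 of set I, and vehicle 5 of set III) and between 53482 and 320024 on the other 7. The deposited signals had been scaled so that the trimmed mean was 497 to 499 on every array. The brightest of 27 probe sets of other bacterial transcripts (dap, lys, phe, thr and trp), taken here as background controls although the labels do not say whether they were added, reached 104 to 170 on the 5 arrays and 280 to 831 on the 7. Vehicle 3, with the highest spike-in signal, also stood apart from the rest: its rank correlations (Spearman) with the 11 others had a median of 0.376, where every remaining array had a median of 0.623 to 0.715. Of 8 gonadotrope marker genes, 7 lay above every background control on all 5 arrays of low spike-in signal, and 3 on all 12. On the same 5 arrays so did 5 of 6 folliculostellate and stem cell genes, 5 of 7 fibroblast and pericyte genes and 3 of 4 corticotrope and melanotrope genes. Endothelial genes had 2 of 5, leukocyte genes 2 of 6 and erythrocyte genes 0 of 2. The count therefore shows signal of these genes and does not mark gonadotropes in particular. The share over all probe sets was not computed, and no unfractionated cells were measured here to show enrichment.

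Growth hormone and prolactin were among the brightest probe sets of every array, in cultures enriched for another cell type. Both were brighter on every array of high spike-in signal than on any array of low spike-in signal, and neither differed between GnRH and vehicle beyond the spread of the arrays. Tshb was bright on all arrays too, in a different order of the preparations. The receptors and Dio2 were dim. Apart from the Ghrhr probe set 1369494_a_at, they lay mostly within the range of the background controls on the arrays of high spike-in signal.

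Gh1 encodes growth hormone, the product of somatotropes. The signal of its probe set was 39228, 60976, 1055840, 569649, 16159 and 349182 on vehicle arrays 1 to 6, and 50612, 68650, 421712, 476516, 596023 and 319864 on GnRH arrays 1 to 6. It ranked between 1 and 11 by brightness among the 31099 probe sets of each array, which describes the probe set's signal and not the amount of RNA. Its signal was 44.6% to 124% of that of a cre control of the same array, one of the brightest probe sets there, with a median of 96.1%, and over the 12 arrays its log2 signal correlated with the spike-in signal at 0.98. The levels of Gh1 below therefore come from a probe set near the top of each array's range, and whether it was saturated was not tested. Vehicle 5 was the lowest and vehicle 3 the highest, 65.3-fold apart, and the GnRH values lay inside the vehicle range. The difference of GnRH from vehicle, fitted over all 12 arrays with the enrichment set as a term, was 0.67 ± 0.78 on the log2(signal + 16) scale (SE, 6 arrays a group), a fold of 1.59 with a 95% interval of 0.506 to 5.02. That scale understates the change of dim genes. The limma test gave an adjusted p of 0.981, and the exact two-sided permutation of agents within sets gave 0.657, where 216 relabellings allow no value under 0.00926. By preparation the Gh1 difference was 0.27 (set I), -0.79 (set II) and 2.54 (set III), where vehicle 5 stood far below the other arrays. Without vehicle 5 it was -0.11.

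Prl encodes prolactin, the product of lactotropes. Its signal was 32505, 29746, 112351, 110089, 18279 and 76005 on vehicle arrays 1 to 6 and 34844, 46853, 122433, 107826, 60508 and 59324 on GnRH arrays 1 to 6. The 4 arrays of set II were the highest and close to each other, the 3 set III arrays of high spike-in signal came next at 59324 to 76005, and the set I arrays and vehicle 5 were lower. In set I both GnRH arrays lay above both vehicle arrays, and in the other preparations the agents overlapped. Such orders of 2 arrays against 2 occurred in both directions among the members. For Gh1, both GnRH arrays of set II lay below both vehicle arrays. The share of all probe sets with such an order was not computed. The difference was 0.37 ± 0.41 (log2, SE), a fold of 1.29 (95% interval 0.706 to 2.37), with a limma adjusted p of 0.981 and an exact permutation p of 0.333. By preparation it was 0.38 in the first set, 0.05 in the second and 0.68 in the third.

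Tshb encodes the beta subunit of TSH, the product of thyrotropes. The vehicle arrays gave 23303, 8764, 2596, 9137, 11573 and 17006, and the GnRH arrays 9293, 10200, 9075, 9104, 12133 and 24007. Set III held 11573 to 24007, every value above the 2596 to 9137 of set II, while set I spanned both with 8764 to 23303. Vehicle 3 was the lowest array, and vehicle 1 and GnRH 6 were about equally high, so the highest value of each agent came from a different preparation. The difference of GnRH from vehicle was 0.21 ± 0.37 (log2, SE), a fold of 1.16 (95% interval 0.672 to 1.99), with a limma adjusted p of 0.989 and an exact permutation p of 0.639. Set I gave -0.55, set II gave 0.90 and set III gave 0.28, and without vehicle 3 it was -0.10.

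**Figure D1:**
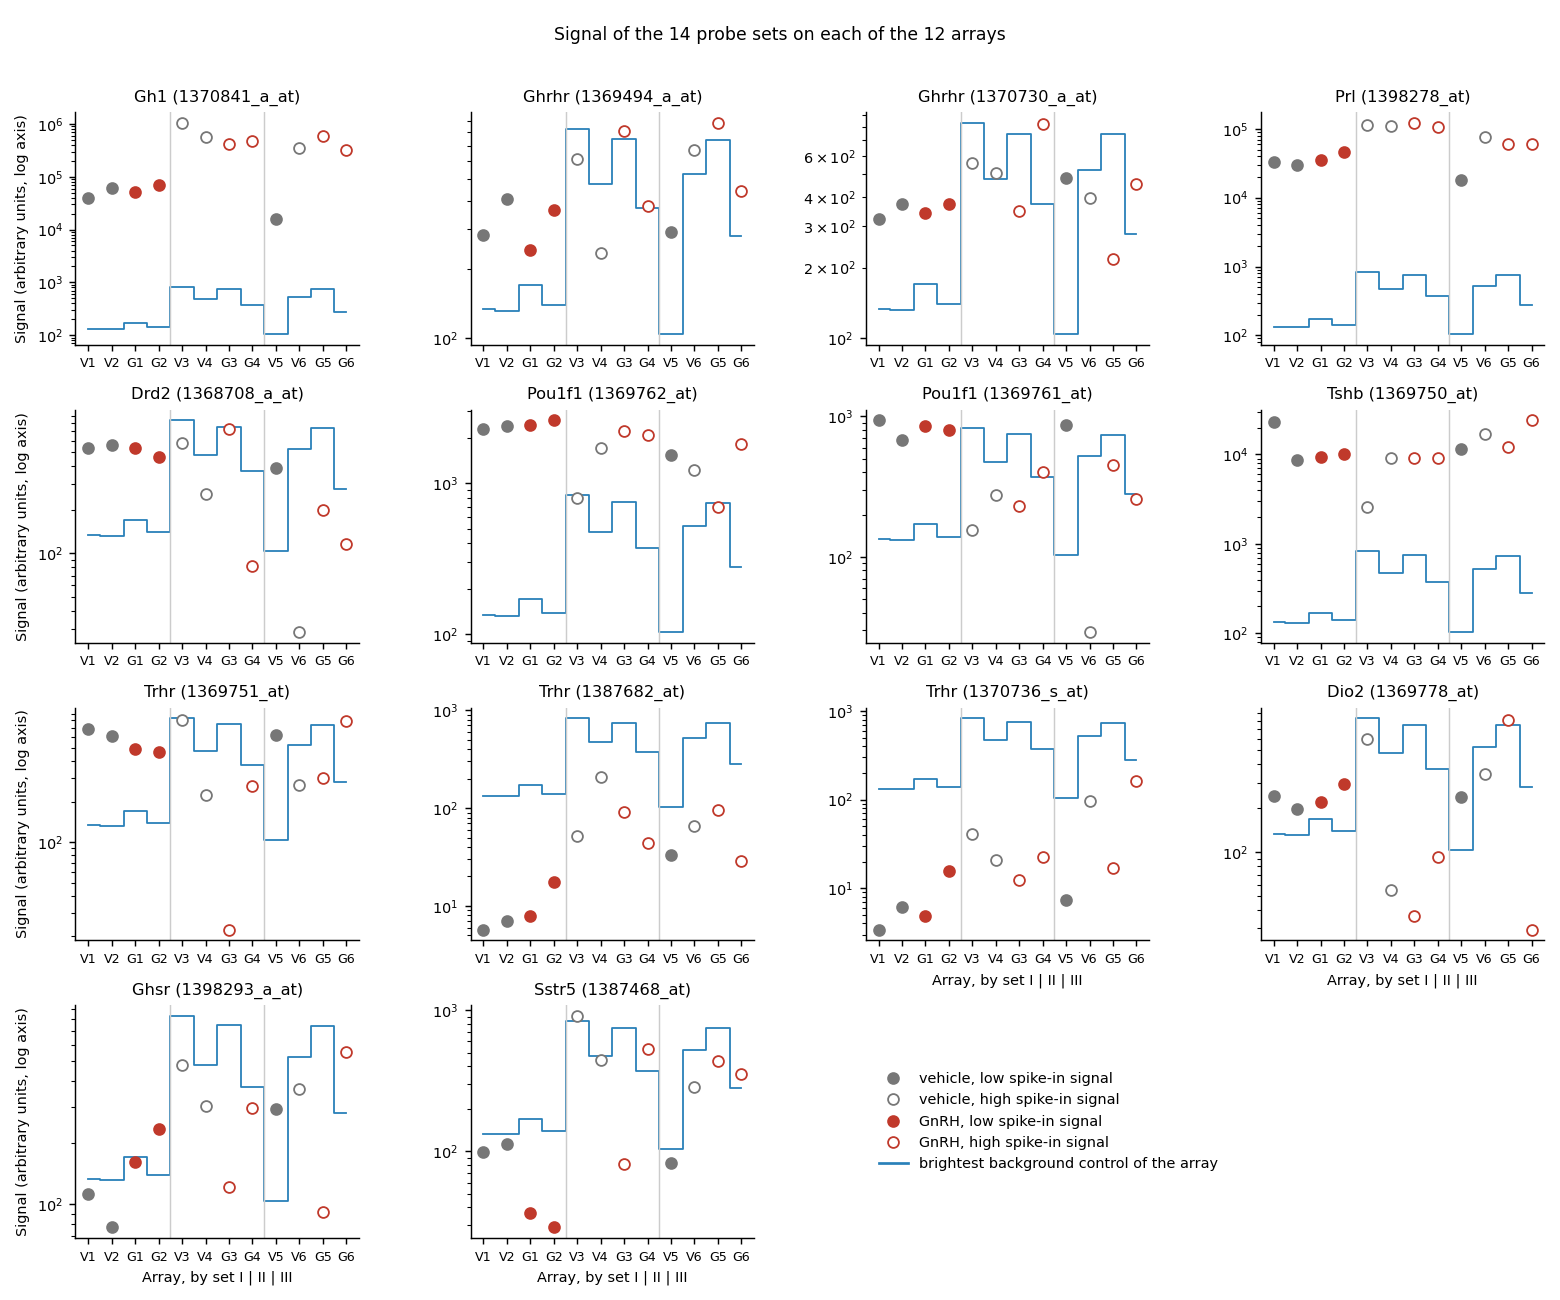
Signal of each of the 14 probe sets (log axis, arbitrary units) on the 12 arrays, ordered by enrichment set, with vehicle arrays V1 to V6 in grey and GnRH arrays G1 to G6 in red. Filled points are the 5 arrays of low spike-in signal, open points the 7 of high spike-in signal, and the blue line is the brightest background control of each array; Gh1, Prl and Tshb lie above it on all 12 arrays and Drd2 on the 5 of low spike-in signal.

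The transcription factor of the lineage, Pou1f1, has 2 probe sets on the array. The brighter one (1369762_at) read 2288, 2388, 793, 1700, 1530 and 1217 on the vehicle arrays and 2449, 2604, 2221, 2084, 698 and 1831 on the GnRH arrays, above every background control on 10 of 12. The set I arrays were the highest, with an SD of 0.08 log2 units, and GnRH 5 and vehicle 3 were the lowest. Its difference was 0.24 ± 0.30 (log2, SE), with a limma adjusted p of 0.981 and an exact permutation p of 0.491. The other probe set (1369761_at) read 935, 684, 155, 277, 869 and 29.2 on the vehicle arrays and 851, 802, 229, 403, 448 and 259 on the GnRH arrays. All 5 arrays of low spike-in signal lay at 684 to 935 and all 7 of high spike-in signal at 29.2 to 448, and 1 of those 7 was above its background controls. Its difference between agents was 0.47 ± 0.57 (log2, SE), with a limma adjusted p of 0.981, and without vehicle 6 it was -0.12. Against set I, the fitted difference of sets II and III was -0.61 and -0.96 log2 units for the first probe set and -1.63 in both for the second, with limma adjusted p over the sets of 0.190 and 0.179.

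The receptors that drive growth hormone release are the GHRH receptor Ghrhr and the ghrelin receptor Ghsr. The Ghrhr probe set 1369494_a_at read 284, 410, 611, 235, 293 and 667 on the vehicle arrays and 243, 365, 808, 382, 882 and 441 on the GnRH arrays. The Ghrhr probe set 1370730_a_at read 324, 375, 562, 505, 481 and 396 on the vehicle arrays and 343, 376, 350, 822, 217 and 453 on the GnRH arrays. The agents overlapped in both, and the probe sets pointed in opposite directions, with differences of 0.27 ± 0.41 and -0.13 ± 0.37 (log2, SE) and limma adjusted p of 0.981 and 0.995. They lay above every background control on 10 and on 8 of the 12 arrays, all 5 of low spike-in signal among them. Ghsr read between 77.3 and 481 on the vehicle arrays, with a median of 297, and between 91.7 and 553 on the GnRH arrays, with a median of 198. It lay above every background control on 3 arrays, so its difference of -0.16 ± 0.53 (log2, SE; limma adjusted p 0.999) mostly compares signals of the size of the background. In set I both GnRH arrays (161 and 235) lay above both vehicle arrays (113 and 77.3), and in set II both (122 and 296) lay below (481 and 302).

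Inhibition reaches these cells through the somatostatin receptor Sstr5 and the dopamine D2 receptor Drd2. Sstr5 read 98.3, 113, 911, 445, 82.3 and 285 on the vehicle arrays and 36.4, 28.9, 81.4, 533, 439 and 354 on the GnRH arrays. It was above every background control on 3 of the 7 arrays of high spike-in signal and on none of the other 5. The Sstr5 difference was -0.52 ± 0.61 (log2, SE; limma adjusted p 0.981), made of -1.32 for set I, -1.5 for set II and 1.25 for set III. Drd2 read 534, 562, 581, 259, 389 and 28.5 on the vehicle arrays and 533, 464, 721, 82.1, 200 and 115 on the GnRH arrays. The 5 arrays of low spike-in signal gave 389 to 562, all above the background controls, and none of the 7 others was above its own, although their Drd2 signal spanned 28.5 to 721. The Drd2 difference was -0.13 ± 0.60 (log2, SE), with a limma adjusted p of 0.999, and on the 5 arrays of low spike-in signal alone it was 0.02.

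The thyrotrope genes besides Tshb are the TRH receptor Trhr and the deiodinase Dio2. The brightest Trhr probe set read 689, 613, 808, 223, 622 and 265 on the vehicle arrays and 487, 467, 22.4, 262, 298 and 790 on the GnRH arrays. All 5 arrays of low spike-in signal lay above their background controls, against 1 of the other 7, and GnRH 3 alone was at 22.4. The Trhr difference was -0.76 ± 0.57 (log2, SE), a fold of 0.590 with a 95% interval of 0.256 to 1.36, a limma adjusted p of 0.981 and an exact permutation p of 0.315. It came to -0.24 without GnRH 3, and within sets it was -0.43, -2.10 and 0.25. The remaining Trhr probe sets, 1387682_at (5.72 to 208) and 1370736_s_at (3.41 to 164), lay above every background control on no array and were under the filter on dim probe sets, so 12 of the 14 probe sets, of all 10 genes, were tested. Dio2 read 243, 197, 599, 55.3, 239 and 345 on the vehicle arrays and 220, 296, 36.5, 92.7, 812 and 29.4 on the GnRH arrays. The 5 arrays of low spike-in signal kept Dio2 between 197 and 296, above their background controls, while the 7 others spread from 29.4 to 812 and 1 was above its own. The Dio2 difference was -0.64 ± 0.70 (log2, SE; limma adjusted p 0.981).

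Between GnRH and vehicle, none of the 12 member probe sets was called at an adjusted p of 0.05, and none had an unadjusted p under 0.05. Over all 18625 probe sets tested, limma called 1, or 0.00537%, and 643, or 3.45%, had an unadjusted p under 0.05. Of the members 6 were higher and 6 lower with GnRH, with a median difference of 0.04 and a median size of 0.32 log2 units. Over all probe sets 53.6% were higher, with a median of 0.04 and a median size of 0.31, so the members' differences were about as large as those of the array as a whole. The study's own kind of criterion, a fold of 1.50 or more that 50% or more of the 36 GnRH and vehicle pairs also reach, was applied here without the change calls of the scanner software. It took 1 member, Dio2, as lower, with 52.8% of pairs, against 15.2% of all probe sets tested in either direction. Sstr5 stood at 50.0% of pairs with a fold of 0.696, and it met the criterion when 1 in place of 16 was added to the signal. The interaction test of limma, which asks whether the difference between agents varied between preparations, called 0 members and 0% of all probe sets. At an unadjusted p under 0.05 it took none of the members and 5.36% of all. The sample titles call the samples biological replicates, but nothing in the labels says whether those of a set came from separate cultures. These p-values therefore measure the spread between samples, which may be technical within a set.

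**Figure D2:**
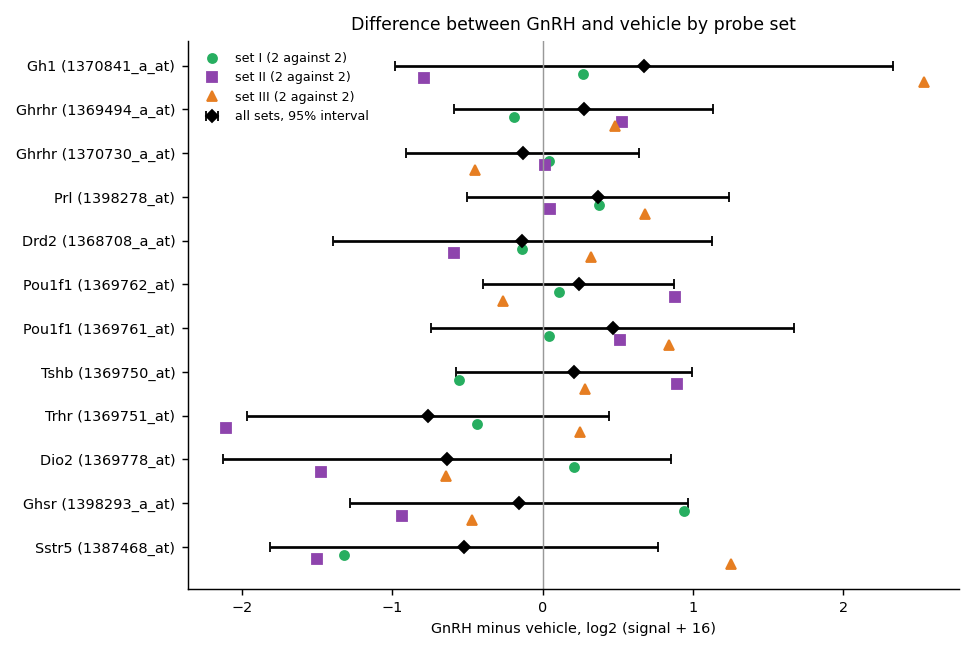
GnRH minus vehicle difference of the 12 tested probe sets in log2(signal + 16), fitted over all sets (black diamonds with 95% intervals) and as the plain difference of means within each enrichment set (coloured points, 2 arrays against 2). All 12 intervals contain 0, and the set values lie on both sides of 0 for most probe sets, Gh1 and Sstr5 being spread from -0.79 to 2.54 and from -1.5 to 1.25.

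The distance between the 2 arrays of the same agent in the same set had, over the members, a median of 0.21 log2 units for set I, 1.05 for set II and 1.00 for set III. Over all probe sets tested the medians were 0.32, 0.82 and 0.77, so the members were closer together than the array in set I and further apart in the other sets. With set I alone, the 95% interval was narrower than with all sets for 10 of the 12 member probe sets, and wider for Tshb (-1.51 to 0.40) and Sstr5 (-2.85 to 0.20). It was narrower for Gh1 at 0.27 (95% interval -0.44 to 0.97), Prl 0.38 (-0.23 to 0.99), Drd2 -0.14 (-0.74 to 0.47) and Pou1f1 0.11 (-0.45 to 0.67). With all sets and with set I alone, no member's interval excluded 0 by limma.

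**Figure D3:**
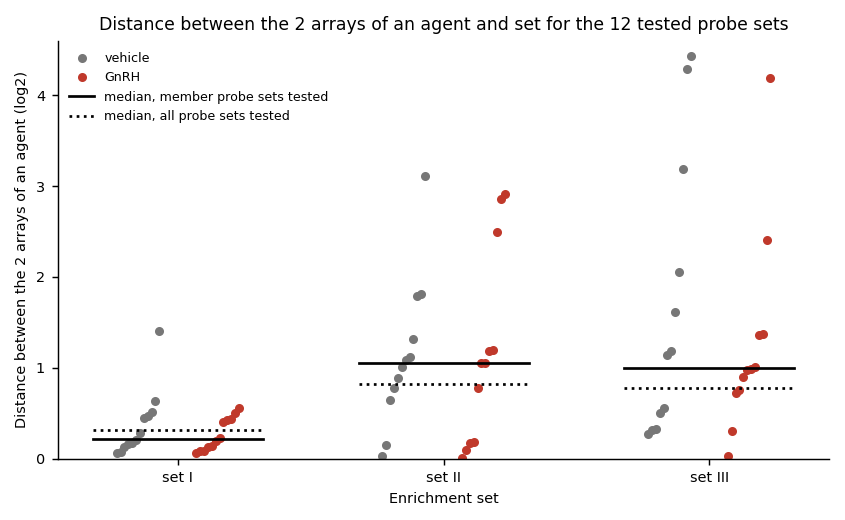
Distance in log2 units between the 2 arrays of the same agent within each enrichment set, 1 point for each of the 12 tested probe sets and agent. Solid lines are the medians of the members (0.21, 1.05 and 1.00 from left to right), dotted lines those of all tested probe sets (0.32, 0.82 and 0.77), which shows set I as the preparation with the closest arrays.

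Between the 3 preparations, no member passed an adjusted p of 0.05 in limma, against 6.02% of all probe sets. Before adjustment, 5 of the 12 members were under 0.05, against 27.8% of all probe sets. They were Gh1 (limma adjusted p 0.077), Prl (0.089), Sstr5 (0.102), Tshb (0.171) and Pou1f1 1369761_at (0.179). The fitted order was set II over set III over set I for Gh1, at 3.46 and 1.75 log2 units above set I and for Prl, at 1.67 and 0.41. The Sstr5 probe set was within its background controls on all 4 arrays of set I, where those controls were also dimmer, so no order is given for it. For Tshb the order was set III, set I, set II, with 0.39 for set III and -0.82 for set II against set I. Neighbouring preparations were not tested against each other. By their arrays, set II lay wholly above set III for Prl, and the other neighbours in the orders of these 3 genes overlapped. The signal of the Gapdh control at its 3' end over that at its 5' end is often read as a sign of RNA quality. It was 22.3 to 43.7 on the set I arrays and 7.76 to 20.7 on the others. The same ratio of the beta-actin control overlapped, at 17.8 to 28.3 on the set I arrays and 5.46 to 29.9 on the others. All RNA had gone through 2 rounds of T7 amplification, and the part of these ratios in the orders was not tested. Vehicle 5 weighed on these tests: without it, 4 members were called, Gh1 at an adjusted p of 0.0030, Prl at 0.019, Sstr5 at 0.040 and Pou1f1 1369761_at at 0.045, all by limma, in a fit that called 12.5% of all probe sets. In bulk RNA, fewer cells of a type and less RNA per cell cannot be told apart.

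The preparations and the spike-in signal cannot be fully told apart, since set I is all low and set II all high, and set III holds both. Gh1 was 319864 to 1055840 on the 7 arrays of high spike-in signal and 16159 to 68650 on the other 5, a fold of 11.9 between their geometric means. Prl was 59324 to 122433 against 18279 to 46853, a fold of 2.87. These were the 2 members whose arrays did not overlap in that direction, as did 3.54% of all probe sets tested. Pou1f1 1369761_at was the 1 member that did not overlap the other way, as did 6.75% of all, at a fold of 0.269. Over the 12 members 6 were brighter and 6 dimmer on the 7 arrays, with a median of -0.01 log2 units, as over all probe sets. Tshb overlapped, at a fold of 0.848. The 7 arrays of high spike-in signal hold no array of set I, so a set test on them alone compared only set II with set III. It gave Gh1 an unadjusted p of 0.774 and Prl 0.274, and Tshb 0.0134 with an adjusted p of 0.889, all by limma. This test cannot address the differences from set I. Within set III, where the preparation was the same, vehicle 5 gave 16159 for Gh1 and 18279 for Prl against at least 319864 and 59324 on the 3 arrays of high spike-in signal.

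The summed signal of the 8 gonadotrope markers moved with the same split, from 41156 to 125579 on the 5 arrays and from 258860 to 510170 on the 7. Cga and Lhb carry most of that sum. Gnrhr, the GnRH receptor, went the other way without overlap, at 249 to 469 on the 5 arrays and 40.3 to 230 on the 7. It lay above every background control on 5 of the 12 arrays, those of low spike-in signal. The remaining markers overlapped between the 5 and the 7 arrays. Scg2 read 8793 to 25600 and 4391 to 15467, and Foxl2 455 to 1325 and 346 to 1337. Fshb read 393 to 587 and 413 to 1062, Nr5a1 221 to 926 and 26.2 to 1412, and Nr0b1 104 to 221 and 72.6 to 474. The sum overlapped between agents, at 41156 to 478756 for vehicle and 87172 to 510170 for GnRH. The part of the gonadotrope markers and of the spike-in signal in the levels of Gh1 and Prl was not tested. A ratio within an array does not depend on how the array was scaled. The log2 ratio of Gh1 to Prl was -0.18 to 1.04 on the 5 arrays and 1.78 to 3.30 on the 7, without overlap. Gh1 was near the top of each array's range as given above. Prl was at 51.2% to 110% of the same cre control on the 5 arrays and at 7.25% to 28.8% on the 7. Whether either probe set was saturated, and what part that had in their ratio, was not tested. Against Lhb, the beta subunit of LH, the log2 ratio of Gh1 was 0.36 to 1.24 on the 5 arrays and 1.19 to 4.48 on the 7, with overlap. The log2 ratio of Tshb to Lhb was -1.74 to 0.25 on the 5 arrays and -4.18 to -2.34 on the 7, with no overlap. That of Prl to Lhb overlapped, at 0.02 to 0.73 and -1.33 to 1.25. Of 7 such ratios none passed the exact permutation test between agents: the smallest p was 0.380, for Prl to Lhb, with a Benjamini-Hochberg value of 0.832 over the 7.

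**Figure D4:**
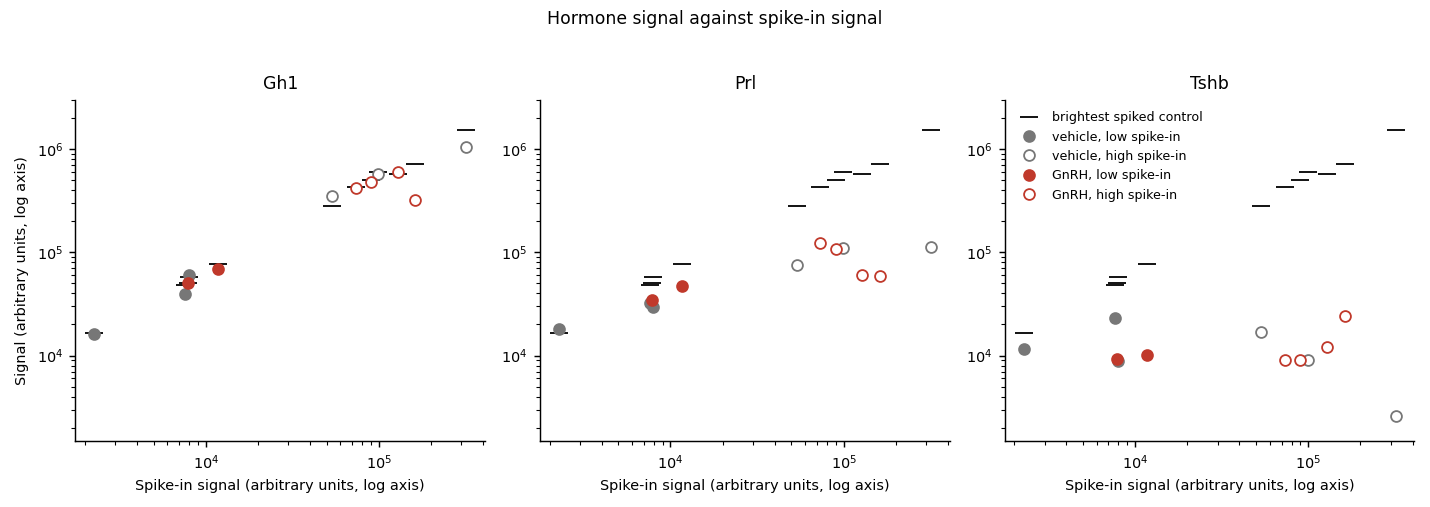
Signal of Gh1, Prl and Tshb (log axis, arbitrary units) against the spike-in signal of the same array (log axis), with vehicle in grey, GnRH in red, filled for the 5 arrays of low and open for the 7 of high spike-in signal, and a black tick for the brightest spiked control of each array. Gh1 lies at 16159 to 68650 on the low arrays and 319864 to 1055840 on the high ones, near the black ticks; Prl differs less, and Tshb overlaps between them.

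By their pattern over the 12 arrays, the probe sets of other genes most like Gh1 were those of Cdkn2c, Klf15 and Klk10, with Pearson correlations of log2 signal of 0.97, 0.96 and 0.96. Those most like Prl were Avpr2 (0.94), Gh1 itself (0.93) and Ccdc158 (0.93). Those most like Tshb were Rbks (0.96), Ssr3 (0.93) and Actn1 (0.92), and those most like Pou1f1 were Tmem30a (0.95), Tnrc6b (0.95) and Cct8 (0.94). The points share arrays and their spike-in split: Gh1 and Prl correlated at 0.93 over all 12 arrays, at 0.90 over the 5 and at 0.41 over the 7.

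Other genes of the lineage and its control were taken from a list of 32, of which 26 are on the array and 17 were tested. Between agents, 7 were higher and 10 lower with GnRH, with a median of -0.09 log2 units, 1 passed an unadjusted p of 0.05 and 0 were called by limma. That 1 was the somatostatin receptor Sstr4, at 147, 159, 47.6, 16.7, 116 and 59.9 on the vehicle arrays and 147, 276, 239, 605, 224 and 1394 on the GnRH arrays. The agents overlapped for Sstr4 and 6 of the 12 values lay above their background controls. Its difference was 2.01 ± 0.61 (log2, SE; limma p = 0.00435, adjusted 0.981), with an exact permutation p of 0.0185, and it lay between 1.63 and 2.32 when each array was left out. Within sets it was 0.37, 3.12 and 2.54. Between preparations 8 of the 17 had an unadjusted p under 0.05, against 27.8% of all probe sets, and 2 were called by limma, against 6.02%: Thrb, the beta receptor for thyroid hormone (adjusted p = 0.0037), and Dlk1, a membrane protein found in somatotropes (adjusted p = 0.038). Thrb read 6967 to 16947 on the 5 arrays of low spike-in signal and 1936 to 5234 on the 7 others, and Dlk1 1164 to 2734 and 2711 to 19091.

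Markers of the other cells a pituitary culture can hold were measured beside the members. No gene of these lists was called between agents by limma, at 0 of 8 gonadotrope, 0 of 4 corticotrope and melanotrope, 0 of 6 folliculostellate and stem cell, 0 of 3 endothelial, 0 of 5 fibroblast and pericyte and 0 of 3 leukocyte genes tested. At an unadjusted p under 0.05 there was 1 gene each in the corticotrope list, Pomc, the precursor of ACTH, at -1.77 ± 0.50 (log2, SE; limma adjusted p 0.981), and in the folliculostellate list, Anxa1 at 0.62 ± 0.29 (adjusted 0.981). The median differences of these 6 lists were 0.32, 0.46, 0.32, 0.24, -0.11 and -0.49 log2 units, the corticotrope median being of opposite sign to Pomc. Of the member lists, the 2 somatotrope genes (Gh1, Ghrhr), the 2 lactotrope genes (Prl, Drd2) and the 3 thyrotrope genes (Tshb, Trhr, Dio2) had medians of 0.47, 0.12 and -0.64. The erythrocyte list had 2 genes on the array, and neither passed the filter on dim probe sets. The endothelial sum ran from 549 to 2975, the leukocyte sum from 638 to 2570 and the corticotrope and melanotrope sum from 1050 to 3024 over the 12 arrays. The folliculostellate and stem cell sum was larger, at 5362 to 13832, as was the fibroblast and pericyte sum, at 6785 to 16656. All 5 sums overlapped between agents. Anxa1 and Col1a2 of the latter lists lay above every background control on all 12 arrays.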

How the data were processed

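The labels give RNA from 12 samples, 6 with GnRH and 6 with vehicle, in 3 enrichment sets, 1 array each. The authors deposited 1 table of linear signal intensity per probe set, made with GCOS, the Affymetrix GeneChip Operating System, per the submitters' processing notes and the series' design text. Which version and which settings were used is not given in the sources used here. All 12 columns are scaled to a trimmed mean near 500, and the number of arrays limits the precision.

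Signals were rescaled, so that the mean trimmed by 2% at each end was 500 on each array, and log2(signal + 16) was taken. Of 31042 probe sets that are no array control, 20826 have 1 gene symbol, 436 several and 9780 none, and 20758 matched the RefSeq gene table by Entrez identifier. The 18625 probe sets whose mean reached the 40th percentile were tested with limma 3.58.1 (R 4.3.3), with agent and set as terms, an intensity trend and Benjamini-Hochberg adjustment over all of them. The set and the interaction were tested with limma's moderated F test. Single probe sets also had an exact two-sided permutation test within sets. Alternatives changed the added constant, normalization, filter, terms, array weights and arrays; 3 were chosen after seeing the data (the 5 arrays of low and the 7 of high spike-in signal, and leaving out vehicle 3 and vehicle 5), as was the split by spike-in signal. The model was tested on simulated data.

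The members and gene lists were chosen with earlier results of these data known. Named were all member probe sets, genes of the lineage list with an unadjusted p under 0.05, and the 3 probe sets most like each of Gh1, Prl, Tshb and Pou1f1. Where a gene has several probe sets, its level in a list is that of the brightest on average.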

Additional observations from a re-analysis of the deposited data

Results flagged for a closer look

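Within the 6 arrays of an agent, the gap of an extreme array to its nearest neighbour was a large share of the group's range for 5 probe sets. The share was 0.701 for Drd2 on vehicle 6 (28.5), 0.731 for Pou1f1 1369762_at on GnRH 5 (698), 0.702 for Tshb on GnRH 6 (24007), 0.650 for Trhr 1369751_at on GnRH 3 (22.4) and 0.718 for Trhr 1370736_s_at on GnRH 6 (164). All are above Dixon's 95% critical value for 6 arrays, which chance passes in about 1 of 20 groups, and 28 were looked at. All 5 lay on arrays of high spike-in signal. How many of all probe sets had such a gap, and on which arrays, was not computed. Sets II and III hold all arrays of high spike-in signal. Over all probe sets tested, the median distance between arrays of the same agent was 0.82 and 0.77 log2 units there, against 0.32 in set I. Whether the placement is particular to the members was not tested.

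The arrays of opposite sets moved in opposite directions for Ghsr, at 0.94 in set I and -0.94 in set II, and for Sstr5, at -1.32 in set I and 1.25 in set III. The difference itself was tested as an interaction by limma and was not called, with an adjusted p of 0.961 for Ghsr and 0.929 for Sstr5.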

How the results depend on the processing

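Of 333 values of the 12 member differences under 28 settings, 295 kept their direction and 38 reversed, and none was called at an adjusted p of 0.05. Members called between agents stayed at 0 throughout. The reversed values were -0.087 for Gh1 and 0.051 for Drd2 with spike-in signal as a term; -0.21 for Prl and -0.12 for Tshb with quantile normalization; and -0.35 for Tshb and 0.50 for Ghsr with array weights. In set I alone they were -0.19 and 0.042 for Ghrhr (1369494_a_at, 1370730_a_at), -0.55 for Tshb, 0.21 for Dio2 and 0.94 for Ghsr; in set II alone -0.79 for Gh1 and 0.014 for Ghrhr 1370730_a_at; and in set III alone 0.33 for Drd2, -0.27 for Pou1f1 1369762_at, 0.25 for Trhr and 1.25 for Sstr5. The 5 arrays of low spike-in signal gave -0.12 for Ghrhr 1369494_a_at, 0.024 for Drd2, -0.45 for Tshb, 0.17 for Dio2 and 0.44 for Ghsr, and the 7 of high spike-in signal -0.35 for Gh1, -0.11 for Prl and 0.41 for Drd2. Without vehicle 3 and vehicle 5 together, Drd2 was 0.48, Tshb -0.24 and Ghsr 0.047. Leaving out 1 array at a time gave -0.11 to 0.99 for Gh1, -0.30 to 0.035 for Ghrhr 1370730_a_at, -0.59 to 0.29 for Drd2, -0.12 to 0.96 for Pou1f1 1369761_at, -0.10 to 0.48 for Tshb and -0.42 to 0.18 for Ghsr. The 1 probe set called between agents over the whole array became 0 with 1 added to the signal, quantile normalization, median centring, a 60th percentile filter, no set term, sets I, II or III alone, or the 5 or the 7 arrays, became 2 with array weights, and was 0 to 1 with 1 array left out. With the replicate number as a block it was 0; the numbers were not taken to pair the samples, since same-numbered samples correlated in their deviations from the group means at -0.22 to 0.65, not over 0.1 for every pair, and the numbers follow the sets: in deviations from set and group means the correlations were -0.14 to -0.03. Between sets, 0 members became 2 with median centring, 1 without a filter, 7 with array weights, 5 without vehicle 3 and vehicle 5, and 0 to 4 with 1 array left out (4 without vehicle 5). The 1122 probe sets called between sets became 637 with quantile normalization, 3293 with median centring, 26 with spike-in signal as a term, 4529 with array weights, 0 on the 7 arrays, 3806 without vehicle 3 and vehicle 5, and 127 to 2332 with 1 array left out (2332 without vehicle 5). The fit on the 7 arrays compared set II with set III only. The 0 called in the interaction became 0 to 815 (815 without vehicle 4). With 1 added to the signal, 2 members in place of 1 met the fold and concordance criterion. Signals near the background controls limit Ghsr, Sstr5, Trhr, Dio2, Drd2, Ghrhr 1370730_a_at and Pou1f1 1369761_at. The cause of these changes was not tested.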
